A study of Mus musculus with 44 samples.

Results

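The short 5′ fragments of the lysine tRNA with anticodon CTT (LysCTT) were 31 of 17051 tRNA fragments (tRFs) counted in mouse hypothalamus. A fragment was included when the count table named only LysCTT tRNAs for it, called it a 5′-half or 5′-tRF, and gave it a length of at most 45 nt and at least 220 counts summed over 44 libraries. The summed counts therefore chose the fragments, and their overall abundance is given as a description without a test. They held 600643 of 4569025 tRF counts, or 13.15%. Another 72 fragments of the same kind were under the minimum and held 2138 counts together. The fragments just inside the limit were tRF-35-PSQP4PWEFJI0E7 with 227 counts and tRF-25-PSQP4PW3FJ with 252, and those just outside it were tRF-44-PSQP4PW3FJIKE7UM1H with 211 and tRF-18-PSQP4P0K with 204.

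The libraries came from C57Bl/6J mice in 3 groups. The AM132 group (16 libraries) held mice made obese by 11 weeks of high fat diet and given a 16-mer antisense oligonucleotide against miR-132, protected by locked nucleic acid. The AM608 group (16 libraries) held mice made obese in the same way. They were given a 15-mer of the same chemistry against miR-608, a primate miRNA, as control. Both oligonucleotides were injected into a vein at 3.3 mg/kg on 3 consecutive days, and tissue was taken 7 days after treatment. The RCD group (12 libraries) held age-matched lean mice on regular chow. No injection is described for them, so in any comparison with RCD the diet and the injection cannot be told apart. The labels also give 4 batches. Of the AM132 libraries 4 came from batch 1, 8 from batch 2 and 4 from batch 3, and the AM608 libraries were spread in the same way. The RCD libraries came from batch 2 (4 libraries) and batch 4 (8 libraries). Nothing in the labels describes how the libraries of a group relate to litters or cages, so p-values measure the spread between these libraries.

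A tRNA folds into a cloverleaf, and its anticodon sits in a loop closed by the anticodon stem. Cuts in that loop, known above all from the nuclease angiogenin during stress, split a tRNA into 5′ and 3′ pieces called tRNA-halves, while shorter 5′ tRFs end in the D arm or the anticodon stem. Such fragments can associate with Argonaute or with translation factors, and they are abundant small RNAs in brain.

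All 31 fragments began at the first base of the tRNA, so they differ in where they end and in a few bases. The sequences below show the 5 fragments that carry most of the counts, the change that separates the main forms, and fragments whose last base differs from that run. Capitals mark position 29, counted from 1 at the 5′ end, position 41 where it is reached, and any other base that differs from the first sequence.
tRF-35-PSQP4PW3FJI0E7 (35 nt, A29): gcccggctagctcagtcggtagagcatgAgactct
tRF-35-PSQP4PW3FJIKE7 (35 nt, G29): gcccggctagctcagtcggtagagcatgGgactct
tRF-36-PSQP4PW3FJI0E7E (36 nt, A29): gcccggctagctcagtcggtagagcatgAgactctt
tRF-34-PSQP4PW3FJI0E5 (34 nt, A29): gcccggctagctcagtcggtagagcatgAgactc
tRF-33-PSQP4PW3FJI0W (33 nt, A29): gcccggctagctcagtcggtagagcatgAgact
tRF-33-PSQP4PW3FJI0V (33 nt, T33C): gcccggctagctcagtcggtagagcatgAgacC
tRF-32-PSQP4PW3FJI01 (32 nt, A29): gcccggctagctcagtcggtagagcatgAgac
tRF-29-PSQP4PW3FJF4 (29 nt, G29): gcccggctagctcagtcggtagagcatgG
tRF-28-PSQP4PW3FJD0 (28 nt, ends before position 29): gcccggctagctcagtcggtagagcatg
tRF-42-PSQP4PW3FJI0E7UM5 (42 nt, A29): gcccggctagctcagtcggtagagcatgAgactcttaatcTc
tRF-42-PSQP4PW3FJIKE7UMJ (42 nt, G29): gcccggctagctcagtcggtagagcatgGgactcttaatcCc

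The anticodon CTT lies at positions 34 to 36 of this run, so the 35-nt fragments end within the anticodon and the 36-nt fragments end with its last base. Position 29 lies in the anticodon stem and faces position 41 across it. In the A29 form the facing bases are A and T, and in the 42-nt G29 fragment, which differs by A29G and T41C, they are G and C, so each form keeps its own base pair. The commonest 5′ fragment of the other lysine tRNA, LysTTT, is set beside them because it differs by only C7A, G28C and C34T over 35 nt.
tRF-36-PS5P4PW3FJHPEZE (36 nt, LysTTT): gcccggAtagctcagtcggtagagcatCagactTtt

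The table names 10 LysCTT tRNA entries for the 31 fragments, 5 of them for the 35-nt A29 fragment and 3 for the 35-nt G29 fragment. RefSeq lists 24 LysCTT genes (n-TKctt) on 12 chromosomes of GRCm38.p6. Of the 31 fragments 28 were named for several entries, so that their sequence does not tell which one they came from, and the 3 variants with T33C or G19A were named for 1 entry each. Genome positions are not given here, since 2 of the 10 entries lie past the last annotated gene of their chromosome in GRCm38 and the table's build is not given in the sources used here. For the same reason an entry of the table is not taken here as a mouse gene.

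The tRF libraries held 38619 to 221358 counts (median 99504), and the miRNA libraries of the same samples 3020192 to 5997234. Exact 95% binomial intervals (Clopper-Pearson) were at most 0.562 percentage points wide for the fragments' share of a library and at most 4.88 points wide for the share at 35 nt, and they cover counting error only. The targeted miR-132-3p ranged from 62.26 to 1219 CPM (counts-per-million) of miRNA in AM132 (median 708.1). It ranged from 638.7 to 1243 in AM608 (median 920.6) and from 764.2 to 1624 in RCD (median 987.6). The lowest value was that of AM132 6, and the ranges of the groups overlapped. A list of 5 brain miRNAs summed to between 182236 CPM, also in AM132 6, and 345129 CPM. A pair of pituitary miRNAs reached 15726 CPM in AM608 5 against at most 354 in libraries other than AM132 5, AM132 6 and AM608 5, and a pair of epithelial miRNAs reached 13206 CPM in AM132 6. Both lists were counted in every library. In these bulk samples, fewer cells of a type and less RNA per cell cannot be told apart.

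Most of the fragments' counts sat at the anticodon loop. The 10 5′-halves, of 32 to 35 nt, held 76.1% of the 600643 counts, and the 21 5′-tRFs, of 16 to 42 nt, held 23.9%. A single fragment, the 35-nt A29 fragment, had 291979 counts, which was 48.61% of the counts of all 31. The 36-nt A29 fragment followed with 78117 counts, the 35-nt G29 fragment with 53861 and the 34-nt A29 fragment with 49502. The 33-nt A29 fragment had 33095 counts, the 36-nt G29 fragment tRF-36-PSQP4PW3FJIKE7E had 28524, the 32-nt A29 fragment had 18180 and the 31-nt A29 fragment tRF-31-PSQP4PW3FJI0B had 15308. These 8 fragments were counted in all 44 libraries, as were 27 of the 31. The shortest fragment, tRF-16-PSQP4PE of 16 nt, ends in the D loop and had 1198 counts. The 42-nt fragments, the longest, had 517 counts in the G29 form and 336 in the A29 form.

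By sequence, 13 fragments had A at position 29 and no other difference and held 82.92% of the counts. The G29 form had 9 fragments with 15%, 6 fragments ended before position 29 and held 1.143%, and 3 variants held 0.933%. The variants were the 33-nt T33C fragment with 4897 counts, a 35-nt T33C fragment (tRF-35-PSQP4PW3FJI007) with 480, and the 35-nt fragment with G19A (tRF-35-PSQP4PWEFJI0E7).

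The ends of the A29 and G29 forms fell at different places. Over lengths of 29 to 45 nt, 58.6% of A29 counts and 59.01% of G29 counts were at 35 nt. At 36 nt, the end after the whole anticodon, A29 had 15.68% of its counts and G29 had 31.25%. At 33 nt the order was the other way, with 6.642% of A29 and 1.564% of G29, and at 34 nt A29 had 9.934% and G29 3.766%. As a share of A29 and G29 counts together, G29 was 1.061% at 32 nt, 4.134% at 33 nt, 6.492% at 34 nt, 15.57% at 35 nt and 26.75% at 36 nt. Beyond that it was 20.25% at 37 nt, 47.53% at 40 nt, 27.06% at 41 nt, 60.88% at 42 nt. At 44 nt, where single fragments were under the count minimum, it was 94.25%.

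**Figure D1:**
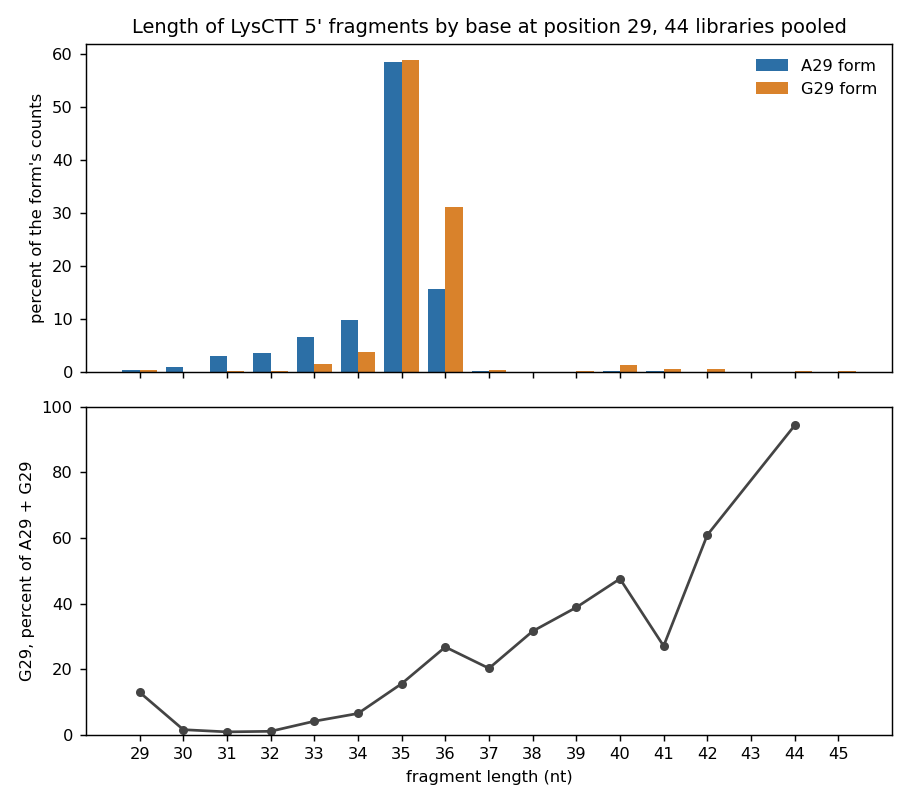
Upper panel: percent of each form's counts (44 libraries pooled) at each fragment length in nt, with A29 in blue and G29 in orange. Lower panel: G29 as a percent of A29 and G29 counts at each length with at least 200 counts, which passes from 1.061% at 32 nt through 26.75% at 36 nt to 94.25% at 44 nt.

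The same order was seen when these pooled counts were split by library, which describes the same counts and is not a separate test. Over 44 libraries the G29 share was 7.834% ± 3.309 (SD, n = 44) at 34 nt, 16.95% ± 3.846 at 35 nt and 27.92% ± 4.593 at 36 nt. It was higher at 36 than at 35 nt in 44 of 44 libraries and higher at 35 than at 34 nt in 44 of 44. From 33 to 34 nt it was higher in 36 of 44. The number of 36-nt counts per 35-nt count was 0.2617 ± 0.0391 (0.1642 to 0.3607) in the A29 form and 0.505 ± 0.0815 (0.2724 to 0.6634) in the G29 form, again higher for G29 in 44 of 44 libraries. The libraries are not independent of one another in kit, sequencing or reference, and the lengths were counted by the same method in all.

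**Figure D2:**
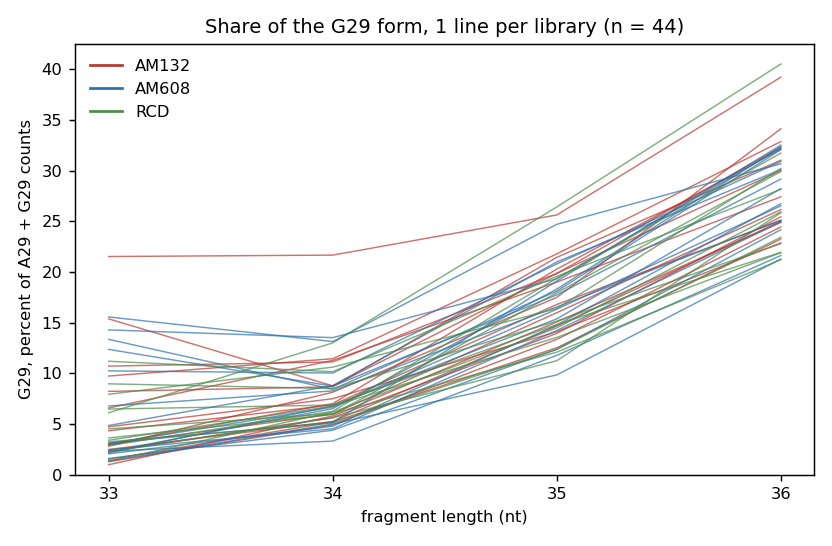
G29 as a percent of A29 and G29 counts (vertical axis) at 33, 34, 35 and 36 nt (horizontal axis), 1 line per library, coloured by group (AM132, AM608, RCD). All 44 lines rise from 34 to 35 nt and from 35 to 36 nt, and lines of the 3 groups overlap.

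Groups of the study overlapped in this share. At 35 nt it was 15.58% ± 2.553 (n = 4) in AM132 and 15.63% ± 1.063 (n = 4) in AM608 of batch 1, and 14.09% ± 1.117 (n = 4) and 12.2% ± 2.03 (n = 4) in batch 3. In batch 2 it was 20.4% ± 2.736 (n = 8) in AM132, 19.89% ± 2.278 (n = 8) in AM608 and 20.04% ± 4.425 (n = 4) in RCD. The 8 RCD libraries of batch 4 had 14.17% ± 2.598. With all libraries in, the 3 groups of batch 2 thus differed from one another by less than their SD. All 3 had higher means than any group of the other batches.

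LysCTT 5′ fragments of 46 to 50 nt showed the opposite balance of forms, and their main sequences are printed because they carry that contrast.
tRF-50-PSQP4PW3FJIKE7UMKKSW (50 nt, G29 and C41): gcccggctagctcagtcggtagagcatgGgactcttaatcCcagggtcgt
tRF-50-PSQP4PW3FJI0E7UM8KSW (50 nt, A29 and T41): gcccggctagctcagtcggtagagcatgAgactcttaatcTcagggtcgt
The G29 one had 626386 counts and the A29 one 29825, whereas among the short fragments A29 led. Over all fragments of 46 to 50 nt, G29 with C41 had 712993 counts, A29 with T41 had 33851, and G29 with T41 had 750. At 41 to 45 nt the balance was closer, with 1877 counts of A29 with T41, 1283 of G29 with C41 and 146 of G29 with T41. Of the G29 counts that reach position 41, 89.78% at 41 to 45 nt and 99.89% at 46 to 50 nt had C there.

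A pair of fragments differed from the A29 run only in the last base. The 33-nt T33C fragment is the 32-nt fragment with a C added, and it made up 12.94% ± 1.454 (SD, n = 44) of T33C and A29 counts at 33 nt, with a range of 10.48% to 16.48%. At 35 nt, where position 33 is inside the fragment, T33C made up 0.1661% ± 0.0854. The share was higher at 33 than at 35 nt in 44 of 44 libraries. The 29-nt G29 fragment tRF-29-PSQP4PW3FJF4, with position 29 as its last base, had 345 counts, which was 12.94% of the 29-nt counts of both forms. At 30 nt, where position 29 is the base before the last, G29 was 1.559%. The table names 1 LysCTT entry for the 33-nt T33C fragment and 3 for the 29-nt G29 fragment. Whether mouse tRNA genes carry these bases was not tested.

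The fragments' share of a library varied widely, and the ranges of AM132 and AM608 overlapped in each batch. Over all 44 libraries it ran from 1.629% in AM132 12 to 25.21% in AM132 4, with a median of 11.98%. In batch 1 the share was 19.57% ± 7.505 (n = 4) in AM132 and 16.74% ± 2.395 (n = 4) in AM608. In batch 3 it was 15.48% ± 1.745 (n = 4) and 14.06% ± 1.032 (n = 4). In batch 2 the lowest, median and highest shares were 1.629%, 9.382% and 12.07% in AM132 (n = 8) and 2.177%, 11.53% and 13.24% in AM608 (n = 8). The 4 RCD libraries of batch 2 had 8.651%, 4.818%, 13.48% and 12.64%. In batch 4 the RCD libraries had 10.91% ± 4.533 (n = 8). The mean of AM132 was above that of AM608 in batches 1 and 3 and below it in batch 2 (8.549% in AM132), by less than 1 SD of the wider group each time. In batch 3 the log2 ratio of the means was 0.139 against a pooled SD of 0.134 on that scale, and with the 46- to 50-nt LysCTT fragments taken out of the total, an alternative chosen after seeing the data, it was 0.343 against a pooled SD of 0.18.

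The LysCTT fragments of 46 to 50 nt are counted in the same total, and their share varied as well. They held from 0.002675% of counts in AM608 15 to 59.84% in AM608 8, and the short fragments exceeded them in 19 of 44 libraries. The 46- to 50-nt share was 32.36% ± 15.56 in AM132 and 27.01% ± 18.13 in AM608 of batch 2 (n = 8 each), and 0.07356% ± 0.1313 in AM608 of batch 3 (n = 4). With them taken out of the total, the short fragments' share ran from 3.807% to 26.03%, and its lowest value rose by more than its highest. Their part in the differences between libraries was not tested further.

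**Figure D3:**
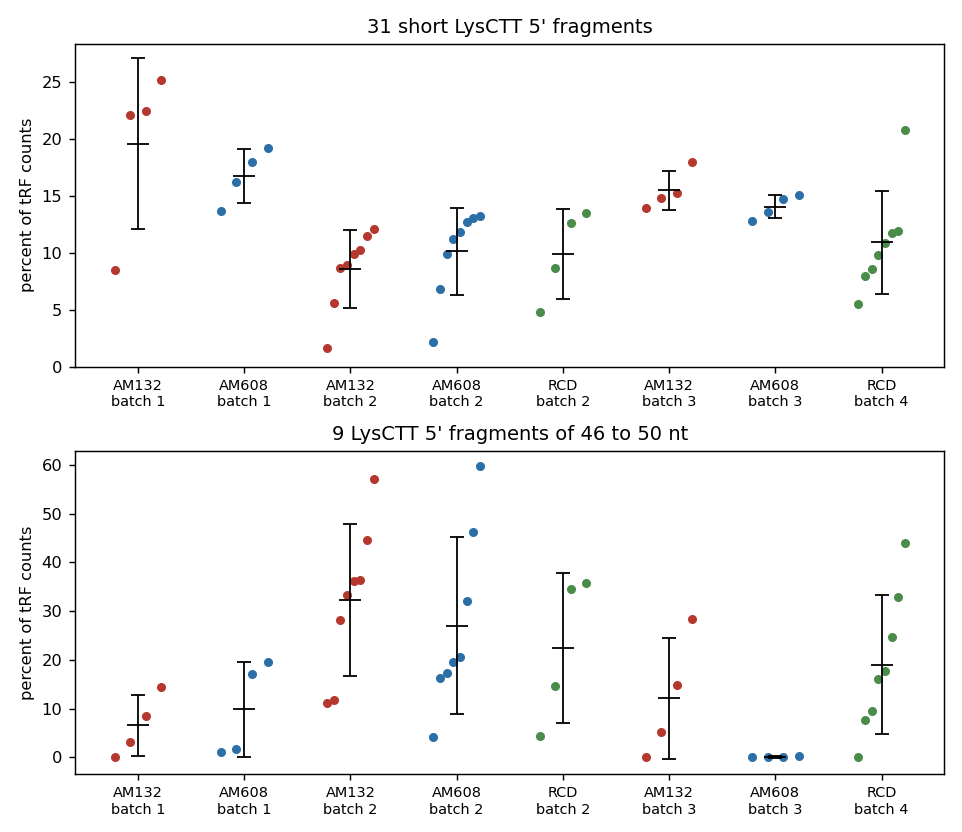
Percent of tRF counts (vertical axes) held by the 31 short LysCTT 5′ fragments (upper panel) and by the 9 LysCTT 5′ fragments of 46 to 50 nt (lower panel), 1 point per library, with the mean and SD of each group and batch in black. Short fragments averaged 8.549% in AM132 and 9.896% in RCD of batch 2, and 14.06% to 19.57% in the groups of batches 1 and 3.

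The mix of lengths also differed between libraries. The 35-nt fragments held 52.65% ± 13.7 of the counts of all 31 (n = 44), the 36-nt ones 16.01% ± 5.031, those of 32 to 34 nt 21.67% ± 11.24, those of 29 to 31 nt 5.719% ± 4.881, those of 37 to 42 nt 1.973% ± 2.195 and those of 16 to 28 nt 1.981% ± 2.127. The 35-nt A29 fragment was the most counted fragment in 42 of 44 libraries. In the other libraries the 33-nt A29 fragment led, with 282 counts against 256 in AM608 8 and 614 against 323 in RCD 10. The share at 35 nt was 13.23% in RCD 10 (upper end of the exact 95% interval 14.43%), 18.22% in AM608 8 (interval 16.49% to 20.05%), 27.08% in AM132 12 (24.69% to 29.57%) and 36.48% in AM132 8 (35.02% to 37.95%). All 4 are of batch 2, where the next lowest library, RCD 9, had 47.52%. They stood apart within that batch only, since in batch 4 RCD 7 had 26.93%, RCD 6 28.05% and RCD 5 29.13%. Without these 4, the fragments' share in batch 2 was 10.2% ± 1.363 in AM132 (n = 6), 11.26% ± 2.278 in AM608 (n = 7) and 11.59% ± 2.58 in RCD (n = 3). The log2 ratio of AM608 over RCD moved from 0.0332 to -0.0413, against a pooled SD of 0.34. The G29 share at 35 nt was then 20.13% ± 1.522 in AM132, 19.2% ± 1.282 in AM608 and 17.92% ± 1.495 in RCD. The mean of RCD was thus below that of AM132 by more than the SD of either group. Their ranges overlapped, with 16.4% to 19.39% in RCD (n = 3) and 17.5% to 21.79% in AM132 (n = 6). For the G29 share this setting was chosen after seeing the data. Other results of batch 2 are given without these libraries where stated.

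Lean libraries of batch 4 had on average the largest share at 32 to 34 nt. Fragments of 32 to 34 nt held 34.13% ± 10.89 of the counts in RCD of batch 4 (n = 8) and 27.88% ± 16.19 in RCD of batch 2 (n = 4). They held 15.28% ± 10.47 in AM608 and 19.83% ± 7.629 in AM132 of batch 2 (n = 8 each). In batches 1 and 3 the means of AM132 and AM608 were between 15.91% and 19.66%. The ranges overlapped in batch 2, where RCD libraries had 15.71% to 51.46% and AM608 libraries 9.235% to 40.89%. The highest values were those of RCD 10 and AM608 8. Without the 4 libraries that stood apart, a setting chosen for this measure after seeing the data, the means of batch 2 were 20.02% ± 4.754 in RCD (n = 3), 11.63% ± 1.707 in AM608 (n = 7) and 16.07% ± 3.474 in AM132 (n = 6). Batch 4 held no obese mice, so there batch and group cannot be told apart.

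**Figure D4:**
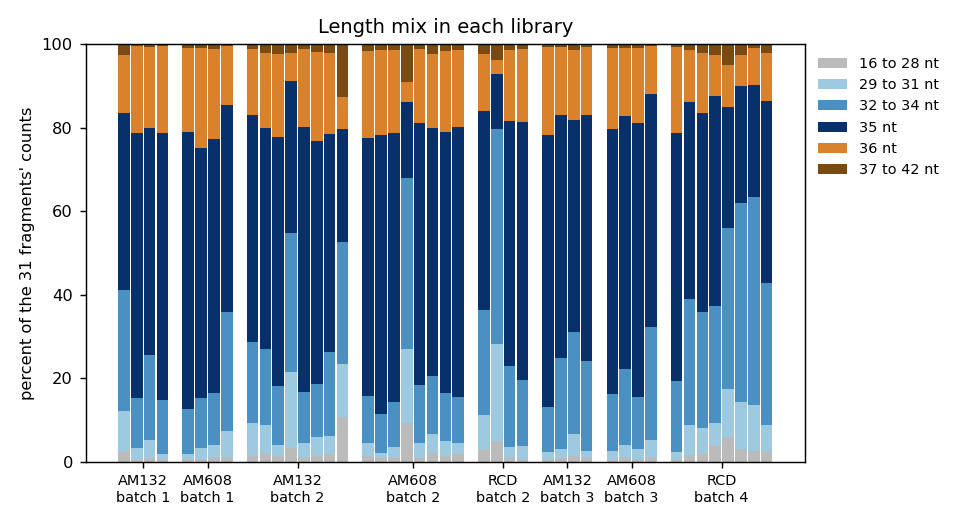
Percent of the 31 fragments' counts (vertical axis) in each length class, 1 bar per library, grouped by treatment group and batch. The 35-nt class takes most of most bars, and the bars of RCD, batch 4, hold more of the 32- to 34-nt class, 34.13% on average.

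The first comparison asked whether the oligonucleotide against miR-132 changed the fragments, with batch as a term. No tRF passed an adjusted p of 0.05 in edgeR's quasi-likelihood test between AM132 and AM608, which is 0% of 494 tested and 0 of the 23 short LysCTT fragments that passed the filter on low counts. At an unadjusted p under 0.05 there were 33 tRFs, or 6.68%, and 0 of these fragments. DESeq2 also called 0.
The 35-nt A29 fragment shows the spread behind this. Levels are in CPM after TMM scaling, edgeR's correction for differences in composition. In batch 1 the AM132 libraries had 20396, 137133, 110195 and 176317 CPM and the AM608 libraries 102740, 118636, 89547 and 78827. In batch 3 they had 100634, 118528, 79875 and 118062 against 106676, 88819, 93703 and 92495. The groups of both batches overlapped, and AM132 1 lay far under its group. In batch 2 the lowest, median and highest levels were 2638, 48235 and 64761 CPM in AM132 and 2998, 64878 and 80978 in AM608. The log2 fold change of the 35-nt A29 fragment was -0.12 ± 0.33 (SE), adjusted p = 0.92 in edgeR.

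The fragments of smallest p were also far from the threshold. tRF-31-PSQP4PW3FJI0B, which ends in the anticodon stem, had a log2 fold change of 0.45 ± 0.26, adjusted p = 0.642 (edgeR, n = 16 against 16). tRF-17-PSQP4P5, of 17 nt, had 0.33 ± 0.20 and the 33-nt A29 fragment 0.38 ± 0.24, with the same adjusted p. Of the 23 fragments 15 had values above 0, with a median of 0.18 against 0.01 over all 494 tRFs. Without AM132 5, AM132 6 and AM608 5, the libraries rich in pituitary or epithelial miRNAs, 13 of 23 were above 0 with a median of 0.04, and with TMM over both tables the median was 0.12. All 9 tested fragments of 29 to 34 nt were above 0 and all 5 of 35 to 36 nt below it. Without the 4 libraries of batch 2 that stood apart, 9 of 9 and 3 of 5 were above 0. Within batches, fragments of 29 to 34 nt were above 0 in 9 of 9, 9 of 9 and 8 of 9 cases in batches 1, 2 and 3, and those of 35 to 36 nt in 4 of 5, 0 of 4 and 5 of 6. Fragments of one run share their source, and none of these values passed the test.

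The effect of AM132 was also compared between batches. Of 494 tRFs, 5 (1.01%) had an effect that differed between batches by the interaction test, all 5 of them LysCTT fragments of 46 to 50 nt, and 0 of the 23 short ones did. At an unadjusted p under 0.05 there were 4.45% of all tRFs and 1 of the 23. The smallest adjusted p among the short fragments was 0.62, for tRF-26-PSQP4PW3FJB, which ends ahead of the anticodon stem's position 29. It was 1 for the 42-nt and the 40-nt G29 fragments, which came next, and for the 35-nt A29 fragment. For the long fragments the count fell to 0 when AM132 5, AM132 6 and AM608 5 were left out.

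The second comparison set obese mice given the control oligonucleotide against lean mice within batch 2. By edgeR's test 0 of 575 tRFs (0%) passed the threshold. The unadjusted p was under 0.05 for 28 of them (4.87%). A single call was made by DESeq2 (1 tRF), which was no short LysCTT fragment. Of the 25 fragments tested, 3 had an unadjusted p under 0.05 and all 3 had negative values. The 33-nt A29 fragment had 6417, 7040, 9424 and 5052 CPM in RCD 9 to 12, and 1970, 3232 and 6265 (lowest, median and highest) in the 8 AM608 libraries. All AM608 libraries but AM608 9 were below the lowest RCD library. Its log2 fold change was -1.07 ± 0.35, with an unadjusted p of 0.0069 and an adjusted p of 0.839 in edgeR. The 33-nt T33C fragment had -0.94 ± 0.39 (adjusted p = 0.839), and again 7 of 8 AM608 libraries were below the lowest RCD library. The 32-nt A29 fragment had -0.74 ± 0.32 (adjusted p = 0.845), with 6 of 8 below. Overlap was looked at only for these 3 fragments, chosen by their small p here. The share of all 575 tRFs with as little overlap was not computed, so these counts are a description.

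Shorter and longer fragments had values of opposite sign here, though the longer ones depended on 1 library. The 9 tested fragments of 29 to 34 nt were all below 0, with a median of -0.69, and the 4 of 35 to 36 nt were all above 0, with a median of 0.34, while all 575 tRFs had a median of 0.09. The 35-nt A29 fragment had 29670, 3703, 82081 and 64599 CPM in RCD 9 to 12, and RCD 10 was lowest by far. Its log2 fold change was 0.27 ± 0.76, and -0.12 without RCD 10. With the 4 libraries that stood apart left out, 9 of 10 fragments of 29 to 34 nt were below 0, with a median of -0.495, and 5 of 5 of 35 to 36 nt were above 0, with a median of 0.15. With RCD 10 alone left out, 9 of 10 of 29 to 34 nt were below 0 (median -0.553), but only 2 of 5 of 35 to 36 nt were above 0 (median -0.0494). Without RCD 11 the median at 35 to 36 nt was 0.784.

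The third comparison set AM132 against the same 4 lean libraries. No tRF of 575 (0%) passed, and 21 (3.65%) had an unadjusted p under 0.05, none of them among the 25 short LysCTT fragments. With no filter on low counts, edgeR called 1 tRF, which was none of them, and DESeq2 called 0. The smallest p was again that of the 33-nt A29 fragment, with a log2 fold change of -0.60 ± 0.36 and an adjusted p of 0.994. For this fragment 4 of 8 AM132 libraries were below the lowest RCD library. The 34-nt A29 fragment had -0.54 ± 0.47 and the 32-nt A29 fragment -0.35 ± 0.33. Of the 9 tested fragments of 29 to 34 nt 2 were above 0, with a median of -0.249. Without the 4 libraries that stood apart it was 5 of 10 with a median of 0.0888, and over all tested short fragments 20 of 29 in place of 13 of 25. Because the control libraries are shared with the second comparison, and AM608 with the first, these values are not independent of those above. Signs depended on the scaling: 13 of 25 fragments were above 0 with TMM and 6 of 25 with DESeq2's size factors in edgeR, a change that moved the median of all tRFs from 0.06 to -0.15.

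**Figure D5:**
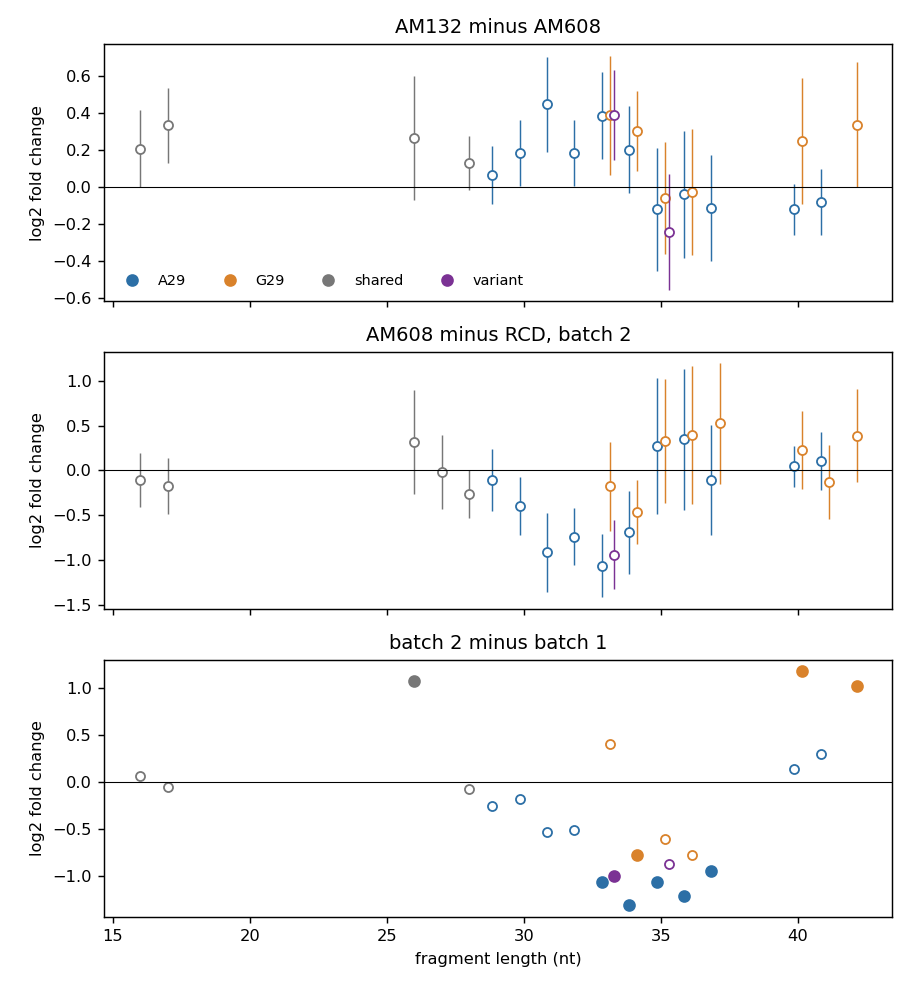
Log2 fold change (vertical axes) of each tested fragment by length in nt, for AM132 minus AM608, AM608 minus RCD in batch 2, and batch 2 minus batch 1, coloured by form. Bars are SE where the test gives one, filled points passed an adjusted p of 0.05 and open points did not; filled points appear in the batch panel only.

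Batch separated the fragments where treatment did not. Among the 32 AM132 and AM608 libraries, 235 of 494 tRFs (47.6%) differed between batches 1, 2 and 3 at an adjusted p of 0.05 with treatment in the model, and so did 10 of the 23 short LysCTT fragments (43.5%), a share near that of all tRFs. At an unadjusted p under 0.05 it was 58.9% of all tRFs and 11 of the 23. Of the 10, 7 were lower and 3 higher in batch 2 than in batch 1. Against batch 1, batch 3 had 6 of them lower and 4 higher. Among all 235 tRFs called, 103 were lower in batch 2 than in batch 1 and the rest higher. Against batch 1, batch 3 had 128 of the 235 lower and 107 higher. Whether the split of the 10 fragments differed from that of all called tRFs was not tested. The adjusted p of each fragment is from a joint test over batches 1, 2 and 3, not from batch 2 against batch 1 alone. With TMM computed over the miRNA and tRF tables together 16 of 23 were called. Of these, 15 were lower in batch 2 than in batch 1. In that setting 308 of all 494 tRFs were called, 222 of them lower in batch 2 than in batch 1. The median of all tRFs for that difference moved from -0.06 to -0.33.
The 34-nt A29 fragment had 16590 ± 7343 CPM in AM132 and 15033 ± 7101 in AM608 of batch 1 (n = 4 each), 6095 ± 2613 and 5595 ± 2176 in batch 2 (n = 8 each), and 20282 ± 6314 and 15315 ± 5293 in batch 3 (n = 4 each). Its log2 difference between batch 2 and batch 1 was -1.30, and the adjusted p of edgeR's joint test was 4.7e-05. Values of -1.06 were found for the 33-nt A29 fragment (adjusted p = 0.000167), -0.997 for the 33-nt T33C fragment (0.000385), -1.21 for the 36-nt A29 fragment (0.0327) and -1.05 for the 35-nt A29 fragment (0.035). The 34-nt G29 fragment tRF-34-PSQP4PW3FJIKE5 had -0.77 (0.0216) and the 37-nt A29 fragment tRF-37-PSQP4PW3FJI0E7O -0.94 (0.0259). The last pair did not pass without the 4 libraries that stood apart.
The 3 that were higher in batch 2 than in batch 1 are given with the adjusted p of edgeR's joint test. They were the 40-nt G29 fragment tRF-40-PSQP4PW3FJIKE7UM with 1.18 (0.00292), the 42-nt G29 fragment with 1.02 (0.00568) and the 26-nt tRF-26-PSQP4PW3FJB with 1.08 (0.0138). The 40-nt G29 fragment had 197.6 ± 148.3 CPM in AM132 and 237 ± 175.2 in AM608 of batch 1 (n = 4 each), 453.2 ± 185.5 and 440 ± 215.7 in batch 2 (n = 8 each), and 225.9 ± 250.5 and 87.8 ± 11.27 in batch 3 (n = 4 each). The ranges of batches 1 and 2 overlapped. In the same fit the 7 tested LysCTT fragments of 46 to 50 nt were higher in batch 2, with a median difference of 1.78. The joint test called 4 of them. With those long fragments left out of the fit, 11 of 23 short fragments were called, the same 10 among them. Among all tRFs it was 235 of 490.

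Lean libraries of batches 2 and 4 were then compared, with diet held fixed. Of 510 tRFs, 50 (9.8%) differed between RCD of batch 4 and batch 2, 23 of them higher (4.51%) and 27 lower (5.29%) in batch 4, and 0 of the 24 short LysCTT fragments did. With total counts in place of TMM the split was 19 higher and 7 lower, and the median of all tRFs moved from -0.08 to 0.35. The 35-nt A29 fragment had a lowest, median and highest level of 10768, 26215 and 135049 CPM in the 8 libraries of batch 4, and RCD 1 was the highest. Its log2 difference of batch 4 from batch 2 was -0.26 ± 0.76. The smallest adjusted p was 0.319, for the 42-nt A29 fragment at 0.75 ± 0.47. The 35-nt G29 fragment had -0.82 ± 0.65 (adjusted p = 0.435) and tRF-17-PSQP4P5 0.37 ± 0.31 (adjusted p = 0.467).

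LysTTT and glutamate 5′ fragments of up to 45 nt, taken by the same count minimum, were measured beside these. The 15 LysTTT fragments held 1.424% ± 0.5302 of tRF counts (n = 44), and the 45 glutamate fragments 21.15% ± 5.897. Between AM132 and AM608, 0 of 13 LysTTT and 0 of 34 glutamate fragments passed the threshold. Values above 0 were found for 10 of 13 LysTTT (median 0.055) and 26 of 34 glutamate fragments (median 0.353). Positive values were thus not particular to short LysCTT fragments. For AM608 against RCD, 6 of 13 LysTTT (median 0.008) and 27 of 41 glutamate fragments (median -0.274) were below 0. Between batches, 2 of 13 LysTTT (15.4%) and 9 of 34 glutamate fragments (26.5%) passed, against 10 of 23 for short LysCTT. The difference between these families was not tested.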

How the data were processed

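Small RNA of hypothalamus was sequenced in 44 libraries (NEBNext small RNA kit, NextSeq 500, per the labels' protocols). The authors deposited a table of raw counts per tRF and another of raw counts per miRNA. The submitters' processing notes name FastQC, while the trimming, aligner, tRNA reference and build are not given in the sources used here. Columns were matched to samples by their names, with 0 columns left over.

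Depth ran from 38619 to 221358 tRF counts per library. The deposited counts were filtered by filterByExpr (minimum count 10, minimum total 15) and scaled by TMM, and tested by edgeR 4.0.16 (R 4.3.3) quasi-likelihood fits over all tRFs that passed, with Benjamini-Hochberg adjustment at 0.05. AM132 against AM608 had batch as a term, comparisons with RCD used batch 2 only, batches 1 to 3 were compared with treatment as a term, and the RCD libraries of batches 4 and 2 were compared with each other. Shares were computed from raw counts. Recovery was checked by simulation, with 100 tRFs given a change of 2 and 100 a change of 1 on the log2 scale. Between AM132 and AM608 (494 tRFs) 98% and 84% were recovered, with 6 false calls. Between AM608 and RCD (575 tRFs) it was 79% and 32%, with 1 false call. Between RCD of batches 4 and 2 (510 tRFs) it was 74% and 34%, with 4 false calls. Adjustment is less strict with that many changes than in the data, where edgeR called 0 tRFs between AM132 and AM608. The percentages average over all changed tRFs, so they do not give the power for short LysCTT fragments.

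The fragments and lists were chosen with earlier results of these data known. Named are the 8 fragments with most counts, the 3 of smallest p and those called in each comparison, the shortest and longest, and those next to the count minimum. Others were named for their sequence. Alternatives were DESeq2 1.42.0, other scalings and filters, the replicate number as a block, and leaving out libraries.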

Additional observations from a re-analysis of the deposited data

Results flagged for a closer look

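A library was looked at again when it lay far from the rest of its group by Dixon's test, over 40 sets of libraries in 5 measures, where chance flags about 1 in 20. RCD 1 held 20.82% of its tRF counts in short LysCTT 5′ fragments, against at most 11.9% in the other RCD libraries of batch 4. In the same library the 35-nt A29 fragment had 135049 CPM, against at most 43164. AM608 8 had 18.22% of the fragments' counts at 35 nt, where the next AM608 library of batch 2 had 59.45%. Its G29 share at 35 nt was 24.71%, against at most 21% in the others. RCD 5 had a G29 share at 35 nt of 19.58%, against at most 15.16% in the other RCD libraries of batch 4.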

How the results depend on the processing

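No short LysCTT fragment was called under any alternative between AM132 and AM608 or in either comparison with RCD. None was called between RCD batches or for the AM132 effect between batches. Between batches 1, 2 and 3, 8 to 16 were called. The 8, of 23, were without the 4 libraries that stood apart, where 232 of all 508 tRFs were called. The 16, of 23, were with TMM over both tables, where 308 of all 494 tRFs were called. Over all tRFs, DESeq2 called 1 of 575 between AM608 and RCD, and 1 of 12274 was called between AM132 and RCD with no filter. Between batches 1, 2 and 3, 663 of 14976 tRFs were called with no filter and 633 of 2511 with a minimum of 10 CPM. In the main fit it was 235 of 494. Between RCD batches 50 of 510 were called in the main fit, 26 of 510 with total counts and 93 of 510 with DESeq2. It was 109 of 9917 with no filter and 117 of 808 with all 44 libraries fitted. With 1 RCD library of batch 2 left out it was 28 of 543 (without RCD 12) to 52 of 564 (without RCD 9). The AM132 effect differed between batches for 5 of 494 in the main fit, 21 of 14976 with no filter and 11 of 3767 with a minimum of 10 CPM. It did for 0 of 490 once LysCTT fragments of 46 to 50 nt were taken out, and the 5 of the main fit were such fragments. Leaving out AM132 5, AM132 6 and AM608 5 gave 0 of 503. The number of tRFs tested changed with the filter, and the cause of these shifts was not tested.

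Other named fragments were followed across settings only in comparisons where they had a smallest p or were called. The 35-nt A29 fragment was followed in every comparison, and among those followed it changed sign most often. Between AM132 and AM608 its log2 fold change was 0.146 in batch 1 alone and 0.14 in batch 3 alone, and that of tRF-17-PSQP4P5 was -0.162 in batch 1 alone. With 1 RCD library left out, the 35-nt A29 fragment ranged from -0.123 (without RCD 10) to 0.701 in AM608 against RCD, and from -0.519 to 0.278 (without RCD 11) in AM132 against RCD, with 0.0899 without RCD 12. In the latter it was 0.0099 with all 44 libraries. Between RCD batches it was 0.0239 with total counts and ranged from -0.654 to 0.164 (without RCD 11). The cause was not tested.

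The fragments' share in RCD of batch 4 over batch 2 had a log2 ratio of -0.632 relative to miRNA counts, against 0.14 of tRF counts, and the AM132 to AM608 ratio in batch 3 was 0.343 with LysCTT fragments of 46 to 50 nt out of the total.

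Same-numbered libraries did not deviate together throughout, and the correlations were mixed. Between AM132 and AM608 they ran from -0.543 to 0.739 (median 0.057), with 7 of 16 over 0.1. Between AM132 and RCD they ran from -0.728 to -0.263 (0 of 4 over 0.1), and between AM608 and RCD from -0.496 to 0.543 (2 of 4). With the replicate block no tRF was called in these 3 comparisons, and the 35-nt A29 fragment had 0.00136 in AM132 against RCD. Low counts limited the G29 share, whose exact 95% interval was up to 20.1 points wide at 36 nt.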
